A study of Homo sapiens with 8 samples.

Results

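The adiponectin receptor mRNAs ADIPOR1 and ADIPOR2 were examined as targets of the RNA-binding protein IGF2BP1. All peaks on the strand of either gene and within its GENCODE 44 borders were taken, which gave 17 of 22311 peaks in cells given DMSO and 17 of 22123 peaks in cells given AVJ16. ADIPOR1 was selected on the values of these lists, because it held the peak with the highest log2 fold enrichment in both, and ADIPOR2 was taken as its paralog. The rank of ADIPOR1 is therefore a description and was not tested. Having a peak was part of the choice as well. For comparison, 25.1% of all protein-coding genes had at least 1 peak with DMSO and 22.6% with AVJ16.

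IGF2BP1 is an RNA-binding protein of fetal tissue that many tumors express again, and it mostly protects bound mRNAs and guides their translation and transport. AVJ16 is a small molecule inhibitor of IGF2BP1. ADIPOR1 and ADIPOR2 encode multipass membrane proteins of the PAQR family that bind adiponectin, a hormone secreted by fat cells. ADIPOR1 is mainly linked to the kinase AMPK and ADIPOR2 to the nuclear receptor PPARα, and both receptors have ceramidase activity. Both are expressed in many tissues, and ADIPOR2 is known best from liver.

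Binding was measured by eCLIP, which sequences the RNA that UV light links to a protein after recovery of that protein (IP), and sets it against a size-matched input (SMInput) made without the antibody. Wild-type H1299 cells, a human non-small cell lung carcinoma line, received 1.5 µM AVJ16 or 0.01% DMSO for 24 h before UV light of 254 nm at 400 mJ/cm2, and RNA was recovered with an antibody to IGF2BP1. Each treatment had 2 IP and 2 SMInput libraries, and the labels say that the samples were made in 2 batches from cells of a single thaw. The authors deposited 1 list of peaks per treatment with the replicates combined, so no value below has an error between replicates and no difference could be tested. Fold enrichment is IP over SMInput on a log2 scale and is not a level of expression. The smallest enrichments in both lists are 8-fold, or 3 on the log2 scale, and weaker sites are missing from a list. Each list was normalized to its own inputs, and read depth is unknown from the lists, so no interval for counting error can be given.

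The stretches that carry the most enriched site are shown first, as RNA from 5' to 3' on GRCh38. The summit of the ADIPOR1 site lies at chr1:202941350-202941379 on the minus strand, in the last exon and in the 3'UTR. In its sequence the first run of capitals is the most enriched peak of the AVJ16 list and the second run is the most enriched peak of the DMSO list. The second stretch lies in the same site, at chr1:202941394-202941423 on the minus strand, with the letters AAUAAA in capitals. The third, at chr1:202941560-202941589 on the minus strand, holds the ADIPOR1 stop codon in capitals, and the fourth, at chr12:1786057-1786086 on the plus strand, holds that of ADIPOR2.
ADIPOR1 summit: ggAUGGGGCAUggucaaaCUUAGCCAUCCc
ADIPOR1 AAUAAA: cacccacugggcAAUAAAcuuuccauuucc
ADIPOR1 stop codon: augacacccuucucUGAgccuucccaccug
ADIPOR2 stop codon: agaggaugcacugUGAuaccuaccagucuc

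Each of these sequences had 1 exact match in the genome over both strands. GENCODE lists 2 ADIPOR1 pseudogenes, ADIPOR1P1 and ADIPOR1P2, which are processed copies of the mRNA. ADIPOR1P1 held no peak, and ADIPOR1P2 held 1 in each list, with log2 fold enrichments of 4.05 with DMSO (chr14:94633976-94634031) and 4.06 with AVJ16. Neither pseudogene holds a run of more than 11 nt of the 136 nt of the main ADIPOR1 site.

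ADIPOR1 was bound mainly in its 3'UTR, and the same places were bound with and without AVJ16. The gene (ENSG00000159346) lies on the minus strand at chr1:202940826-202958572, and its canonical mRNA of 2091 nt ends in a 3'UTR of 741 nt. Each list held 11 ADIPOR1 peaks, which form 6 separate sites when peaks that touch are joined. In each list 2 peaks overlapped coding sequence and 9 lay in the 3'UTR. All 11 DMSO peaks overlapped an AVJ16 peak, against 66.2% of all DMSO peaks, and all 11 AVJ16 peaks overlapped a DMSO peak, against 70.8%. The peaks covered 387 nt with DMSO and 368 nt with AVJ16, of which 350 nt were shared. The shared part was 90.4% of the DMSO bases and 95.1% of the AVJ16 bases, while over all peaks it was 56.2% and 62.0%. ADIPOR1 was chosen for high enrichment in both lists, so these overlaps are not independent of the choice. Its median peak had 5.34 in each list, against 3.63 with DMSO and 3.61 with AVJ16 over all peaks.

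The most enriched ADIPOR1 site lay early in the 3'UTR. With DMSO it covered 136 nt at chr1:202941296-202941431, which is 142 to 277 nt after the last base of the stop codon, and with AVJ16 it covered 133 nt at chr1:202941297-202941429. Both lists divided it into 5 peaks. From 5' to 3' the DMSO peaks had log2 fold enrichments of 6.36, 7.33, 7.42, 7.66 and 6.80. The AVJ16 peaks had 7.50, 7.77, 7.69, 6.75 and 6.26 in the same order. Enrichment thus climbed to a maximum inside the site in both lists, and the maximum sat nearer the 5' side with AVJ16. The highest DMSO peak, at 202-fold, spanned 11 nt from 212 to 222 nt after the stop codon, and the highest AVJ16 peak, at 219-fold, spanned 9 nt from 196 to 204 nt. Averaged over the 133 nt shared by both lists, the site had 7.01 with DMSO and 6.98 with AVJ16.

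**Figure D1:**
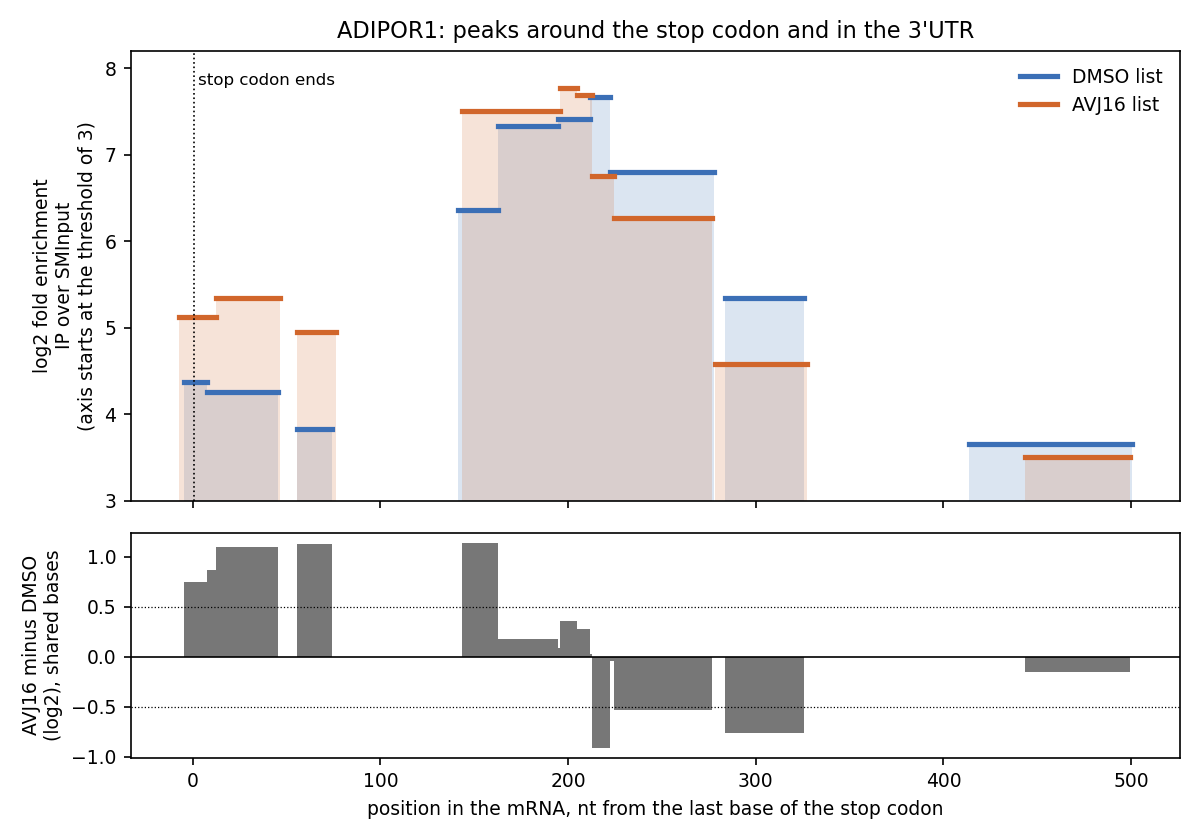
Peaks of ADIPOR1 from the stop codon into the 3'UTR. The upper plot gives the log2 fold enrichment of IP over SMInput for each DMSO (blue) and AVJ16 (orange) peak against its position in nt from the last base of the stop codon, and the lower plot gives AVJ16 minus DMSO over shared bases, with dotted lines at 0.5 and -0.5. Differences are above 0 up to 212 nt after the stop codon and below 0 at every shared stretch after it.

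This site stood above the next one by 0.77 with DMSO and by 0.82 with AVJ16, and it was chosen for that rank. After ADIPOR1 at 7.66, the most enriched DMSO sites were in EI24 at 6.89, CRTC3 at 6.88, SLC7A1 at 6.70, NBDY at 6.58 and the noncoding RNA LINC00632 at 6.55. After ADIPOR1 at 7.77, those of the AVJ16 list were in SLC26A2 at 6.95, the pseudogene PABPC1P4 at 6.70, FTL at 6.48, TRAM2 at 6.44 and LINC00632 at 6.43. LINC00632 was in both sets, and the other genes differed. Reads of a pseudogene such as PABPC1P4 can come from its parent gene, so its value is uncertain.

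The −log10 p of the ADIPOR1 site placed it lower than its enrichment did. The highest value in the site was 161 with DMSO and 170 with AVJ16, and these ranked it 341 of 16870 sites and 373 of 16098 sites. The lists cap −log10 p at 400, and 677 DMSO peaks and 799 AVJ16 peaks stood at the cap. Below the cap no DMSO peak exceeded the ADIPOR1 value, and in the AVJ16 list only a peak in FTL, which encodes ferritin light chain, did so, at 190. The range between these values and the cap was empty in both lists, so the cap holds no order among the peaks at it.

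Further binding in ADIPOR1 was found on both sides of this site and in the coding sequence. With DMSO the peak over the stop codon had 4.38, the next peak 4.25 and a separate peak from 56 to 74 nt after the stop codon 3.83. With AVJ16 the 3 corresponding peaks had 5.12, 5.34 and 4.95. All 3 were higher with AVJ16. On the 3' side, a peak close to the main site had 5.34 with DMSO and 4.58 with AVJ16, and a distal peak had 3.66 and 3.50. The coding sequence held 1 peak away from the stop codon, with 3.64 in the DMSO list and 4.00 in the AVJ16 list.

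Over all shared bases ADIPOR1 differed little between the lists, while its segments differed in opposite directions. Its mean log2 fold enrichment over the 350 shared nt was 5.23 with DMSO and 5.35 with AVJ16, a difference of 0.12. The median difference over all 903511 shared nt of both lists was -0.073, and the central 90% ran from -1.02 to 0.83. Within ADIPOR1 the difference ranged from -0.91 to 1.13, with 104 nt (29.7%) lower and 88 nt (25.1%) higher with AVJ16 by more than 0.5. Over all shared bases 20.7% were lower and 12.5% higher by this limit. Bases higher and bases lower by this much thus lay in the same mRNA. Genes with bases of both kinds numbered 774 of 3722 genes with shared bases, or 20.8%. This share is over genes with any number of peaks, and a gene with 1 shared stretch cannot hold both kinds. Only 7.2% of the genes with a DMSO peak had more peaks than ADIPOR1, so the share is not matched to it.

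Along the mRNA the differences were above 0 up to 212 nt after the stop codon and below 0 beyond it, without a steady order in size. The shared stretch in coding exon 5 was higher with AVJ16 by 0.36. From the stop codon to 74 nt after it, 69 shared nt averaged 4.16 with DMSO and 5.18 with AVJ16, which is higher by 1.02. Inside the main site the first stretch, 144 to 162 nt after the stop codon, was higher with AVJ16 by 1.13, and the following ones up to 212 nt were higher by 0.027 to 0.36. From 213 to 222 nt the difference was -0.91, at 223 to 224 nt it was -0.044 and from 225 to 276 nt it was -0.53. These opposite differences offset each other, and the main site as a whole differed by -0.034. The peak after it differed by -0.76 and the distal one by -0.15. Peak ends were set separately in each list, and where 1 AVJ16 peak lies over several DMSO peaks, as at 144 to 195 nt, the differences take the single AVJ16 value. Whether the peak ends account for the change of sign was not tested.

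Counted by peaks, 3 of the 11 shared DMSO peaks of ADIPOR1 were lower with AVJ16 by more than 0.5, 4 were higher and 4 were within 0.5. Over all shared DMSO peaks 20.1% were lower and 12.6% higher by this limit. With 11 peaks of 1 mRNA, several of which touch, these counts are a description.

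**Figure D2:**
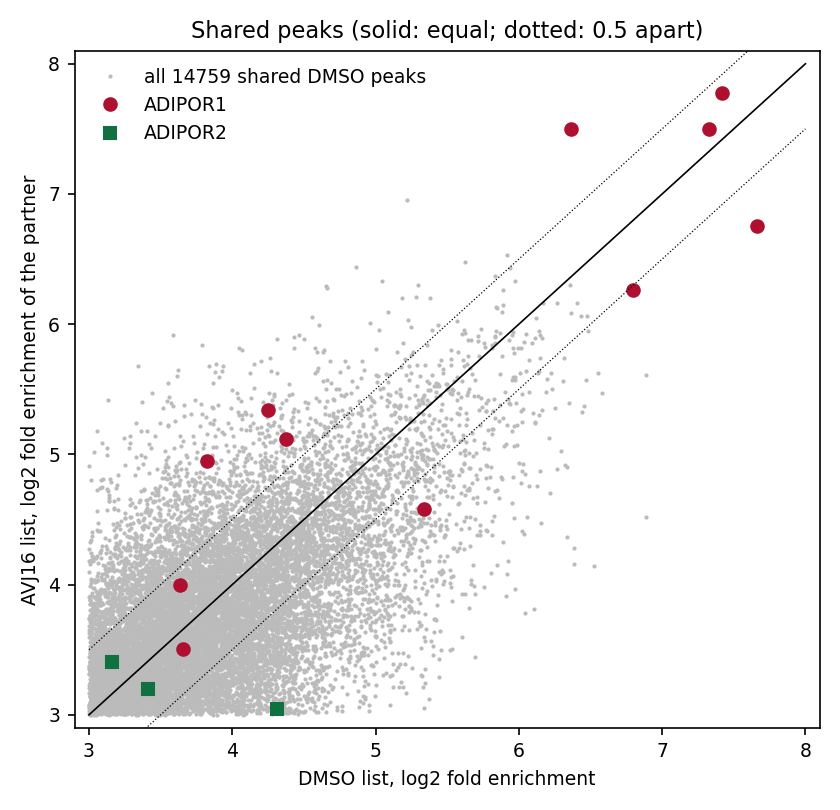
Log2 fold enrichment of each of the 14759 shared DMSO peaks (x axis) and of the AVJ16 peak that overlaps it most (y axis), with ADIPOR1 as red circles and ADIPOR2 as green squares. Solid and dotted lines mark equal values and differences of 0.5, and the 5 peaks of the main ADIPOR1 site lie at the upper right, on both sides of the solid line.

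The main ADIPOR1 site was rich in C and poor in U when set against other bound 3'UTR sequence. With DMSO its 136 nt were 33.1% C, 24.3% U and 17.6% G, and the rest was A. In windows of the same length centred on the 12399 DMSO sites in 3'UTRs, the median was 21.3% for C and 32.4% for U. A lower share of C was found in 92.9% of these windows and a higher share of U in 89.0%. The stretch with AAUAAA printed above belongs to the 5' side of the site, and these letters, the core of the polyadenylation signal, begin 162 nt after the stop codon. The canonical mRNA ends 464 nt beyond the site. The other annotated 3' ends of ADIPOR1 coding transcripts, the nearest at chr1:202941490, lie upstream of the site. None of these ends thus falls shortly after this AAUAAA.

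Short motifs that earlier work or the study ties to IGF2BP1 were searched as letters on the RNA strand, in the site and in the same windows. GGAC was absent from the ADIPOR1 site and stood in 25.4% of the DMSO windows. ACAC occurred 1 time, CACA 2 times (1 of them overlapping ACAC) and CAUU 2 times, and these stood in 37.0%, 48.9% and 64.0% of windows. UCCAG, which stood in 17.5% of windows, was absent. UUUCCGAA was absent as well, and stood in 0.032% of windows. Of these motifs the site held the commoner ones and lacked the rarer ones. The study reports UUUCCGAA as the most common motif of a HOMER search, which a search for its exact letters does not repeat. GXGGCCC and UCCUXXUGG, which the study also names, were not searched. AAUAAA and CCAUU were searched after the sequence had been seen. AAUAAA was found 1 time in the site and in 10.3% of windows, and CCAUU, which contains CAUU, 2 times and in 20.3%. The absence of a motif says only that these letters are not in this window.

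ADIPOR2 peaks were much less enriched than the main ADIPOR1 site and lay mostly in coding sequence. The gene (ENSG00000006831) lies on the plus strand at chr12:1688574-1788674, and its mRNA of 3971 nt has a 3'UTR of 2602 nt. Each list held 6 ADIPOR2 peaks, all of them in exons apart from 1 nt beyond an exon end. With DMSO all 6 overlapped coding sequence. With AVJ16 4 did so and 2 lay in the 3'UTR. The best peak had 4.31 with DMSO, and 30.8% of the 5260 genes with a peak had a higher one. With AVJ16 the best peak had 3.40, and 76.9% of 4741 genes had a higher one. The median best peak of a gene was 3.91 with DMSO and 3.87 with AVJ16.

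From 5' to 3' the DMSO peaks of ADIPOR2 had log2 fold enrichments of 3.17, 3.41, 3.59, 4.31, 3.16 and 3.07. The AVJ16 peaks had 3.20, 3.23, 3.04, 3.40, 3.39 and 3.13. Nearly all stood close to the threshold of 3, so a peak present in 1 list can be missing from the other through a small difference. Of the DMSO peaks 3 of 6 overlapped an AVJ16 peak, and 4 of 6 AVJ16 peaks overlapped a DMSO peak. With 6 peaks a list, these counts are near the 66.2% and 70.8% of all peaks. The last DMSO peak spanned the stop codon, from position -116 to 31 counted from its last base, and no AVJ16 peak was listed there. The AVJ16 list instead held peaks at 89 to 175 nt and at 2369 to 2432 nt after the stop codon, where no DMSO peak was listed.

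Over its 175 shared nt ADIPOR2 had a mean of 3.49 with DMSO and 3.28 with AVJ16, a difference of -0.20. It ranged from -1.27 to 0.25, with 36 nt (20.6%) lower by more than 0.5, about the 20.7% of all shared bases, and 0 nt higher by that much, against 12.5%. All 36 nt belong to the most enriched DMSO peak, which stood at 4.31 against 3.04 and 3.40 for the AVJ16 peaks over it. Without this peak the difference was 0.036, a value computed after the data had been seen. The direction for ADIPOR2 thus rested on 1 peak. Among the 3 shared DMSO peaks 1 was lower by more than 0.5, 0 were higher and 2 were within 0.5.

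**Figure D3:**
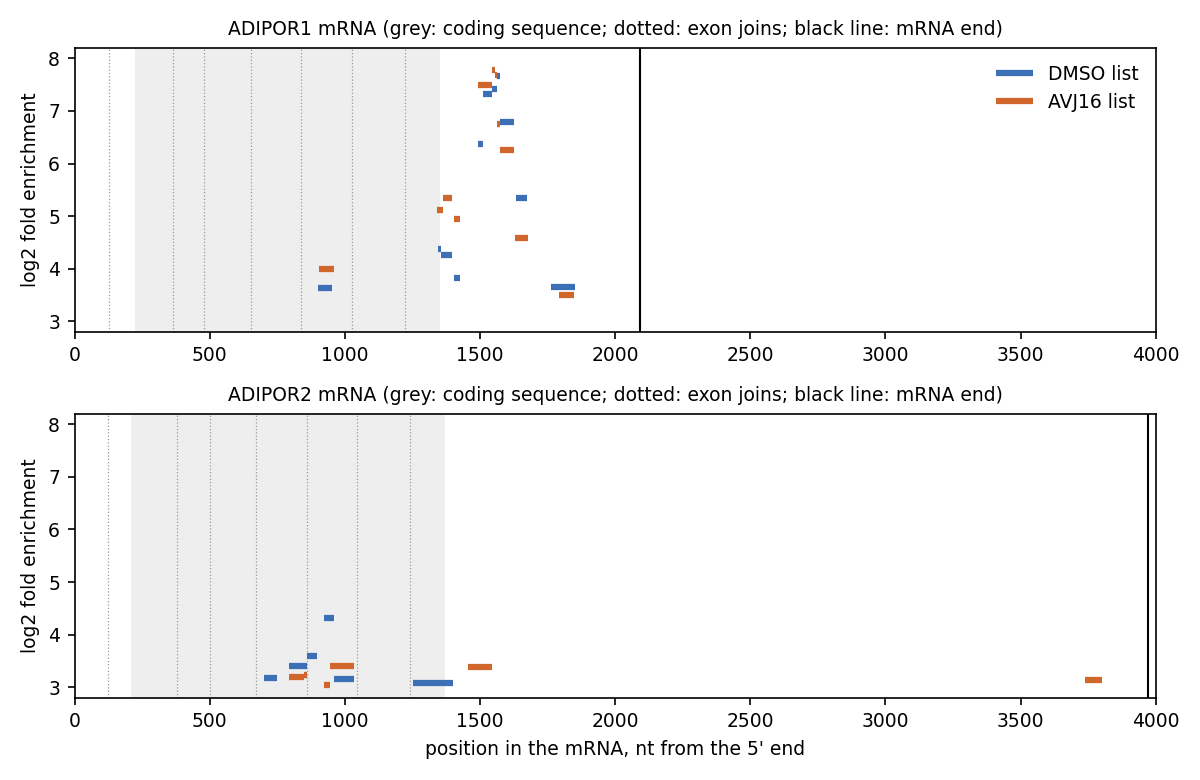
Peaks along the canonical mRNAs of ADIPOR1 (upper) and ADIPOR2 (lower), with position in nt from the 5' end on the x axis and log2 fold enrichment on the y axis, DMSO in blue and AVJ16 in orange. Coding sequence is grey, dotted lines are exon joins and the black line is the mRNA end. ADIPOR1 peaks gather after the coding sequence and reach 7.77, while ADIPOR2 peaks stay at 4.31 or lower and lie mainly within it.

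Peaks of both paralogs covered some of the same bases of coding exon 5. Both have 7 coding exons, and coding exons 3 to 7 are equally long in both genes and 69.0% to 75.6% identical in sequence. In coding exon 5, of 188 nt, ADIPOR1 was covered from base 62 to 114 with DMSO and from 65 to 119 with AVJ16. ADIPOR2 was covered between bases 1 and 175 with DMSO (152 nt in 3 peaks) and from 65 to 176 with AVJ16. Bases 65 to 114 were covered in both genes and both lists, and 34 of these 50 nt (68.0%) were identical. ADIPOR2 peaks covered most of this exon, 152 nt with DMSO and 112 nt with AVJ16. An ADIPOR1 peak of 53 or 55 nt would thus overlap them at most positions, and the overlap is a description. The first 30 nt are printed, with bases identical in both genes in capitals (21 of 30), from chr1:202943852-202943881 on the minus strand and chr12:1780953-1780982 on the plus strand.
ADIPOR1 coding exon 5: UUCUACUGcuccCCACAgCCacGgcUCAUC
ADIPOR2 coding exon 5: UUCUACUGuaauCCACAaCCuuGcuUCAUC

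Each had 1 exact match in the genome. Here ADIPOR1 had 3.64 with DMSO and 4.00 with AVJ16. ADIPOR2 had its best DMSO peak, 4.31, in the same bases. At the stop codon both genes had a peak with DMSO, and with AVJ16 ADIPOR1 had one and ADIPOR2 had none listed. Coding exon 4 held peaks in ADIPOR2 and none in ADIPOR1, in both lists. Coding exons 1, 2, 3 and 6 held no peak in either gene. No ADIPOR2 peak came near the enrichment of the ADIPOR1 3'UTR site, and the best DMSO peaks of the genes were 7.66 and 4.31.

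**Figure D4:**
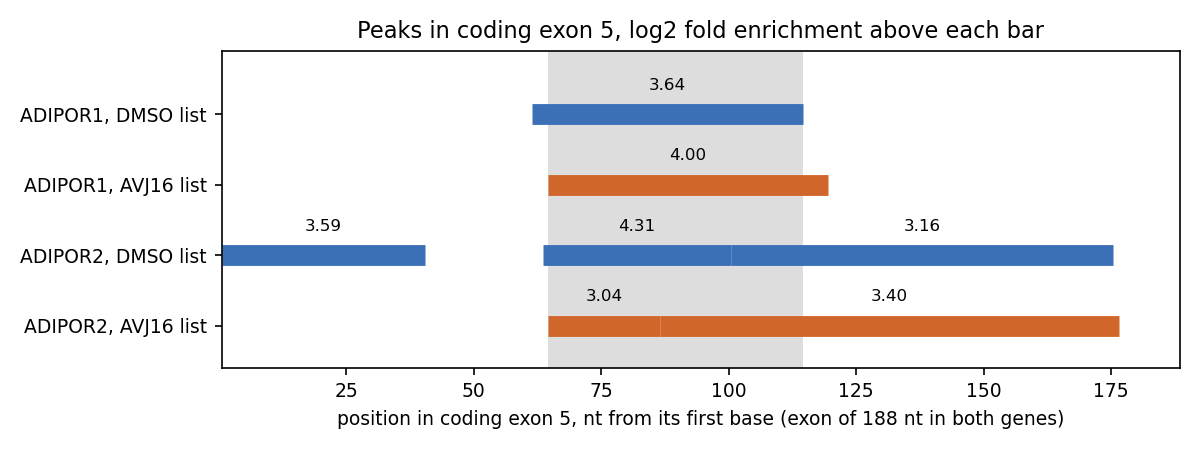
Peaks in coding exon 5 of both genes, by position in nt from the first base of the exon (x axis), 1 row for each gene and list, with DMSO in blue and AVJ16 in orange. The number above each bar is its log2 fold enrichment, and the grey band marks bases 65 to 114, which are covered in all 4 rows.

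Genes with a pattern like that of each receptor were sought among 4112 genes with peaks in both lists, by distance over the number of peaks (log2) and the best peak of each list. Nearest to ADIPOR1 were PABPC1P4, EI24 and ICMT, at distances of 2.12, 2.30 and 2.37. Their best peaks were lower than 7 in both lists, for example 6.15 and 6.15 in ICMT, which encodes the methyltransferase of prenylated proteins. ADIPOR2 had much closer neighbours. VGLL4, CUTC and CREBBP stood at 0.37, 0.38 and 0.39, and VGLL4, a cofactor of TEAD factors, had 7 and 6 peaks with best values of 4.02 and 3.35.

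In the rest of the adiponectin pathway, receptor relatives and downstream enzymes were bound, and the ligand was not listed. Of 63 genes chosen with earlier results of these data known, 31 had a peak with DMSO (49.2%) and 28 with AVJ16 (44.4%), and 24 had a peak in both. The shares among all protein-coding genes were the 25.1% and 22.6% given above. The list holds many genes that most cells express, and expression was not measured here, so its part in these shares was not tested. Over shared bases 22 genes could be compared, of which 14 were lower and 8 higher with AVJ16, with a median difference of -0.076, near the -0.073 of all shared bases.

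ADIPOQ (adiponectin), its relative C1QTNF9 and the receptor CDH13 (T-cadherin) had no peak in either list. Of the 9 other PAQR family genes, 4 had a peak with DMSO and 5 with AVJ16. PAQR5, a membrane progesterone receptor, had 7 peaks in each list and a best peak of 4.72 with DMSO and 3.46 with AVJ16. MMD had 5.13 and 4.55. Over shared bases PAQR5 differed by -0.92 and MMD by -0.56, while PAQR3 (0.16) and PAQR8 (-0.12) were within 0.5. Of the 5 adaptors and partners, APPL1, which binds the receptors inside the cell, had 5 peaks with DMSO and 1 with AVJ16. Its best peak had 4.21 with DMSO and 3.59 with AVJ16, while its 99 shared nt were higher with AVJ16 by 0.35. ERP44, which retains adiponectin in the secretory pathway, was listed with DMSO, and the scaffold RACK1 with AVJ16. The 3 RACK1 peaks lay in exons, with 0 in coding sequence and 0 in the 3'UTR. Their best value was 3.72, with a −log10 p at the cap of 400.

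Of 14 AMPK subunits and upstream kinase genes, 6 had a peak with DMSO and 4 with AVJ16. PRKAA2, a catalytic subunit, differed over shared bases by -0.46, CAB39, a scaffold of the upstream kinase LKB1, by -0.34, STRADB by -0.15 and the regulatory subunit gene PRKAB1 by -0.13. All 4 were lower with AVJ16 and none by more than 0.5. Peak numbers did not all go this way. With DMSO and AVJ16, PRKAB1 had 4 and 9 peaks and STRADB 2 and 6, while PRKAA2 had 7 and 3 and CAB39 6 and 3. The best PRKAB1 peak had 4.08 with DMSO and 4.65 with AVJ16, while the best peaks of the other genes were lower with AVJ16. Over the 3722 genes with shared bases the median difference was -0.079, so it was below 0 as well. PRKAG1 and CAMKK2 were listed with DMSO and not with AVJ16. The AVJ16 list also held fewer genes in all, 4741 against 5260. With so few genes these counts are a description. Among 8 AMPK target genes, 5 had a peak with DMSO and 3 with AVJ16. Of the 3 compared over shared bases, 2 were lower with AVJ16 and 1 was higher. ACACA, an enzyme of fatty acid synthesis, was the higher one, by 0.31, and TBC1D4 differed by -0.14.

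In the PPARα arm, 5 of 6 genes had a peak with DMSO and 4 with AVJ16. PPARA itself had 8 and 7 peaks, all in its 3'UTR, and differed by -0.034 over shared bases. Its partner RXRA had 95 peaks with DMSO, 93 of them in introns, and 12 with AVJ16, all in introns. Over its 411 shared nt RXRA differed by -0.27. The share of intron peaks over each whole list is not given here, so the RXRA counts are a description. Of 5 ceramidase genes, ASAH1, the lysosomal acid ceramidase, had best peaks of 5.28 and 5.05, and ACER3 had 4.74 and 4.32. Over shared bases ASAH1 differed by 0.18 and ACER3 by -0.38. ACER2 was listed with AVJ16 at 4.10. Of 8 genes of insulin signalling and other effectors, 5 and 4 had a peak. IRS1, a docking protein of the insulin receptor, had 3.84 with DMSO and 4.94 with AVJ16 and was higher by 0.76 over shared bases. It was the only compared pathway gene higher by more than 0.5. Of 5 genes for membrane fatty acid balance, 2 and 3 had a peak, and SCD, the stearoyl-CoA desaturase that makes monounsaturated fatty acids, had 42 and 57 peaks and differed by -0.033. The highest best peak among these pathway genes was that of ASAH1 at 5.28, below the ADIPOR1 site and above the best ADIPOR2 peak.

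**Figure D5:**
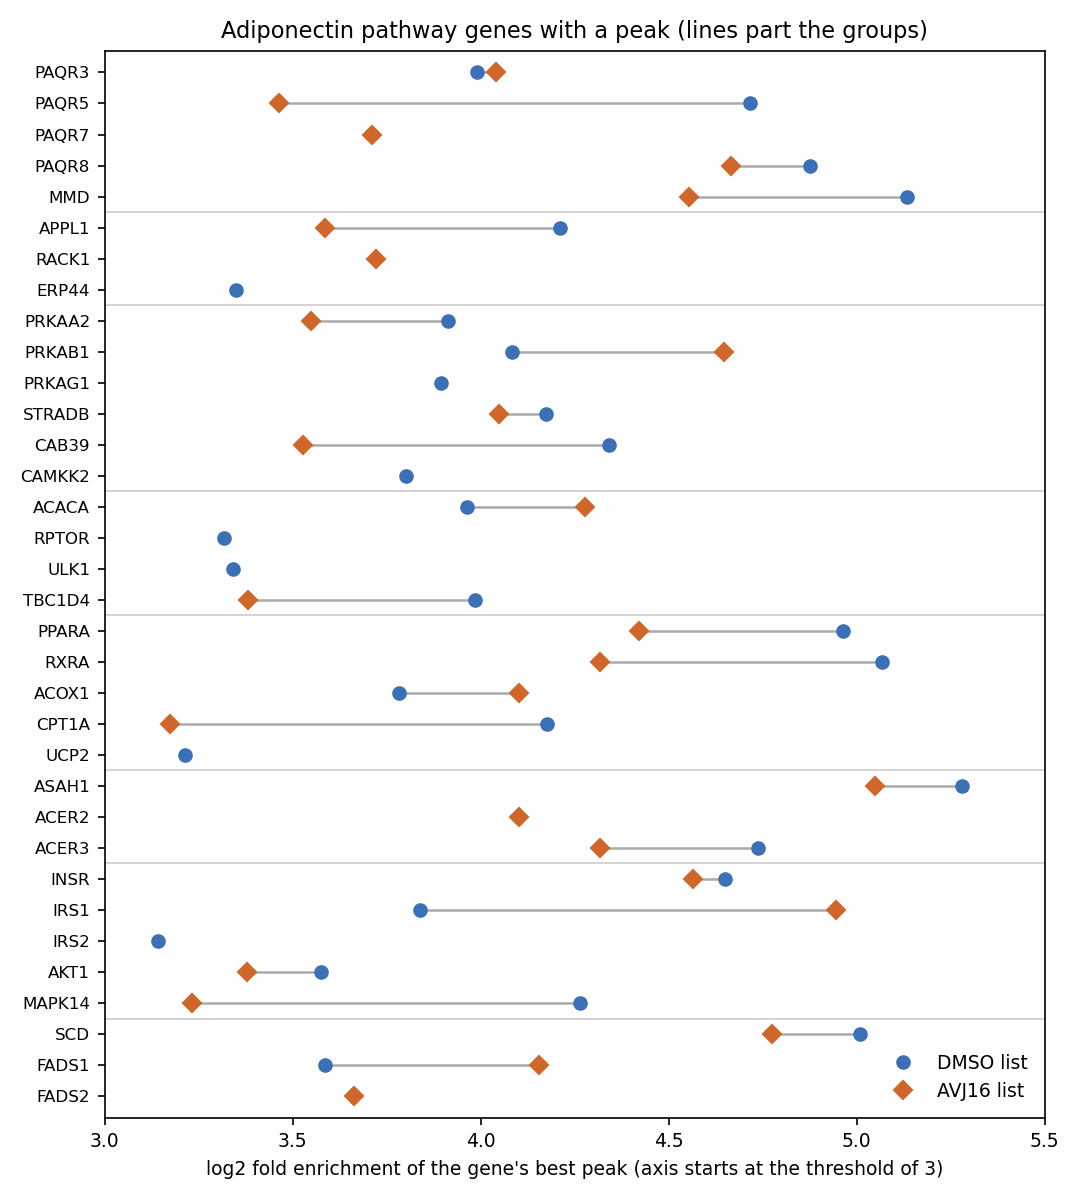
Best peak of the adiponectin pathway genes with a peak in either list, 1 gene left out, as log2 fold enrichment on the x axis, with the DMSO list as blue circles and the AVJ16 list as orange diamonds. A gene listed once has 1 symbol, grey lines join the lists, and horizontal lines part the groups. All values lie at 5.28 or lower, under the ADIPOR1 maxima of 7.66 and 7.77.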

How the data were processed

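IGF2BP1 eCLIP was analysed in H1299 cells given DMSO or AVJ16, grouped as labelled. The authors trimmed adapters (cutadapt), discarded reads from repeats, mapped with STAR, removed PCR duplicates, called peaks with CLIPper and set IP against SMInput reads. Tool versions are not given in the sources used here. File titles name IDR, a reproducibility filter between replicates. The deposited −log10 p-values stop at 400, and the deposited log2 fold enrichments are IP over SMInput. Both lists were normalized separately, and library depth is unknown from them.

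Peaks were assigned on their strand with GENCODE 44 (labels: hg38; the Methods name an older release), with CDS before UTRs (3' first), then noncoding exons, then introns (proximal within 500 nt). An overlap was at least 1 nt, touching peaks were joined into sites, and enrichments were subtracted base by base. Peaks were paired by their longest overlap. The motif CCNGUU was searched too and was absent from the main site.

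The genes named are the members, the fixed pathway list, the 5 genes whose most enriched sites follow ADIPOR1 in each list, and the 3 genes most like each member. 1 gene of the pathway list is counted and not reported here by name. Members and lists were chosen with earlier results of these data known. Alternatives covered enrichment and p-value thresholds, joining, centring, ranking and exonic peaks. Python 3.11.15, numpy 2.4.6, pandas 2.3.3, pysam 0.24.0 and matplotlib 3.10.9 were used, and the functions were tested on simulated data.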

Additional observations from a re-analysis of the deposited data

How the results depend on the processing

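The difference for ADIPOR1 stayed above 0 with every alternative run, and was 0.36 as the median over paired peaks. No alternative left out the 69 nt from the stop codon onward, which were higher by 1.02. The alternatives thus do not show that the direction for ADIPOR1 holds without this stretch. Of its other shared bases, only the 50 nt in coding exon 5 were higher on average, by 0.36. The 133 nt of the main site differed by -0.034, the 42 nt after it by -0.76 and the 56 distal nt by -0.15. The difference for ADIPOR2 stayed below 0 except where its highest DMSO peak was left out, which gave 0.036 and was chosen after seeing the data. Best peak minus best peak gave -0.91 for ADIPOR2. With a −log10 p of at least 20 no DMSO peak of ADIPOR2 was left, and no value could be given. The 11 ADIPOR1 peaks of each list became 6 and 6 when touching peaks were joined. With peaks at 4 or above on the log2 scale, ADIPOR2 kept 1 peak with DMSO and 0 with AVJ16, and 16 and 17 pathway genes had a peak. Ranked by −log10 p, the ADIPOR1 site was 341 with DMSO and 373 with AVJ16. The length-weighted mean, or peaks of at least 20 nt, left it at rank 1 in both lists. No paired analysis was possible because each list combines its replicates. Every value depends on the separate normalization of the lists, and depth is unknown.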
